A study of Mus musculus with 14 samples.

Results

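The set examined here is the phase II conjugation enzymes: the cytosolic, kappa and microsomal glutathione S-transferases (gene names starting Gst or Mgst), the UDP-glycosyltransferases (Ugt) and the sulfotransferases (Sult). A gene belonged to it by its symbol alone, where a probe set of the array carried that single symbol in the platform annotation. This gave 52 of the 22180 genes measured: 21 glutathione S-transferases, 10 UDP-glycosyltransferases and 21 sulfotransferases. Each of the 52 was read by 1 probe set. A further 8 probe sets were annotated to several genes, among them Gsta1 with Gsta2 and the whole Ugt1a cluster, and name no gene here.

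The study profiled liver of male C57Bl/6J mice. At 6 weeks of age all mice began a 60% high-fat diet (HFD), and after 4 weeks they entered 1 of 3 groups for 4 more weeks. The HFD control group stayed on the diet alone (n = 4 arrays). The HFD_CANA group received the diet with canagliflozin, an inhibitor of the renal glucose transporter SGLT2, at 30 mg/kg in the sample labels and 25 to 30 mg/kg in the protocol (n = 5). The HFD_caloric_restriction group ate 15 to 30% less of the diet, set so that body weight matched the drug group (n = 5). All groups therefore share the diet, and no lean group was analysed here. Values are the authors' log2 RMA values from Affymetrix arrays, and every difference below is on that log2 scale. The labels do not say array by array that each came from its own mouse, so p-values measure the spread between these arrays. In whole liver, fewer cells of a type and less RNA per cell cannot be told apart.

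Phase II enzymes attach a polar group to drugs, steroids, bile acids, bilirubin and reactive products of lipid oxidation, which makes them easier to excrete. Glutathione S-transferases add glutathione, UDP-glucuronosyltransferases add glucuronic acid from UDP-glucuronate, and sulfotransferases add sulfate from the donor PAPS. In liver these genes are under the control of the antioxidant sensor NRF2 and of nuclear receptors such as CAR and PXR, and several differ between males and females. In humans canagliflozin is itself cleared mainly by glucuronidation, and its clearance in these mice was not examined here.

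Arrays are named below by group and the replicate number in the labels. The median of an array over all probe sets lay between 4.07 and 4.13, and pairs of arrays correlated at 0.986 to 0.992 across genes. The mean of 6 hepatocyte markers was 12.96 to 13.03 in HFD control, 13.00 to 13.08 with canagliflozin and 12.90 to 13.13 under caloric restriction. Of the 52 phase II genes, 32 had a mean of 5 or more over the 14 arrays. The 20 dimmer ones were 15 sulfotransferases, 3 glutathione S-transferases and 2 UDP-glycosyltransferases, whose means all lie below the median of every array. A probe set's brightness depends on its sequence, so levels of different genes are not compared.

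No phase II gene passed the test in any comparison. At an adjusted p below 0.05 (limma with Benjamini-Hochberg adjustment over 22180 genes), 0 of 52 were called for canagliflozin against HFD control, where 0% of all genes were called. The count was also 0 of 52 for caloric restriction against HFD control, with 0% of all genes called, and 0 of 52 for canagliflozin against caloric restriction, with 0.00451% called. That is 1 gene, Rtkn, named here after its values were seen and no phase II gene. The smallest adjusted p of any phase II gene was 0.774, 0.999 and 0.683 in these comparisons. Both treated groups are set against the same 4 HFD control arrays.

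At an unadjusted p below 0.05, the drug against HFD control gave 0 of 52 phase II genes beside 6.51% of all genes (3.21% higher and 3.3% lower). That 0 depended on the processing. It stayed 0 under cyclic loess but was 2 under median centring and 2 with the replicate number as a term. Without drug replicate 3 the count was 4. Leaving out an array also moved the counts of the other comparisons given next, up to 7 in each. Shares over all genes were not computed for these runs. Caloric restriction against HFD control gave 2 of 52, or 3.85%, beside 3.93% of all genes: Mgst3 was higher, where 2.06% of all genes were, and Ugt2b38 lower, where 1.87% were. The drug against caloric restriction gave 4 of 52, or 7.69%, beside 6.05% of all genes. With the drug 1 of these was higher, beside 3.07% of all genes, and 3 were lower, beside 2.98%. The shares of 3.85% and 7.69% are near those of the whole array. Groups without overlap between arrays were found for 0, 0 and 1 of the 52 genes, beside 1.95%, 1.4% and 0.929% of all genes. The 1 gene is Sult3a1. A fitted difference of at least 1.5-fold was seen for 0, 2 and 1 of the 52, beside 0.577%, 0.176% and 0.397% of all genes: Gstt3 and Ugt2b38 under caloric restriction, and Gstt3 between the treated groups. The 8 probe sets annotated to several genes, Ugt1a included, ran from -0.13 to 0.20, from -0.13 to 0.13 and from -0.11 to 0.13 in the 3 comparisons, with 0 at an unadjusted p below 0.05 in each (limma).

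The spread between arrays sets what could be seen. The median 95% interval of a phase II gene reached 0.31 to either side for both comparisons with HFD control and 0.30 for the drug against caloric restriction, against 0.25, 0.25 and 0.24 for all genes. For canagliflozin against HFD control every one of the 52 intervals stayed within a 2-fold change, and 5 reached past 1.5-fold. For caloric restriction against HFD control 2 intervals reached past 2-fold and 8 past 1.5-fold. For the drug against caloric restriction these counts were 1 and 6.

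**Figure D1:**
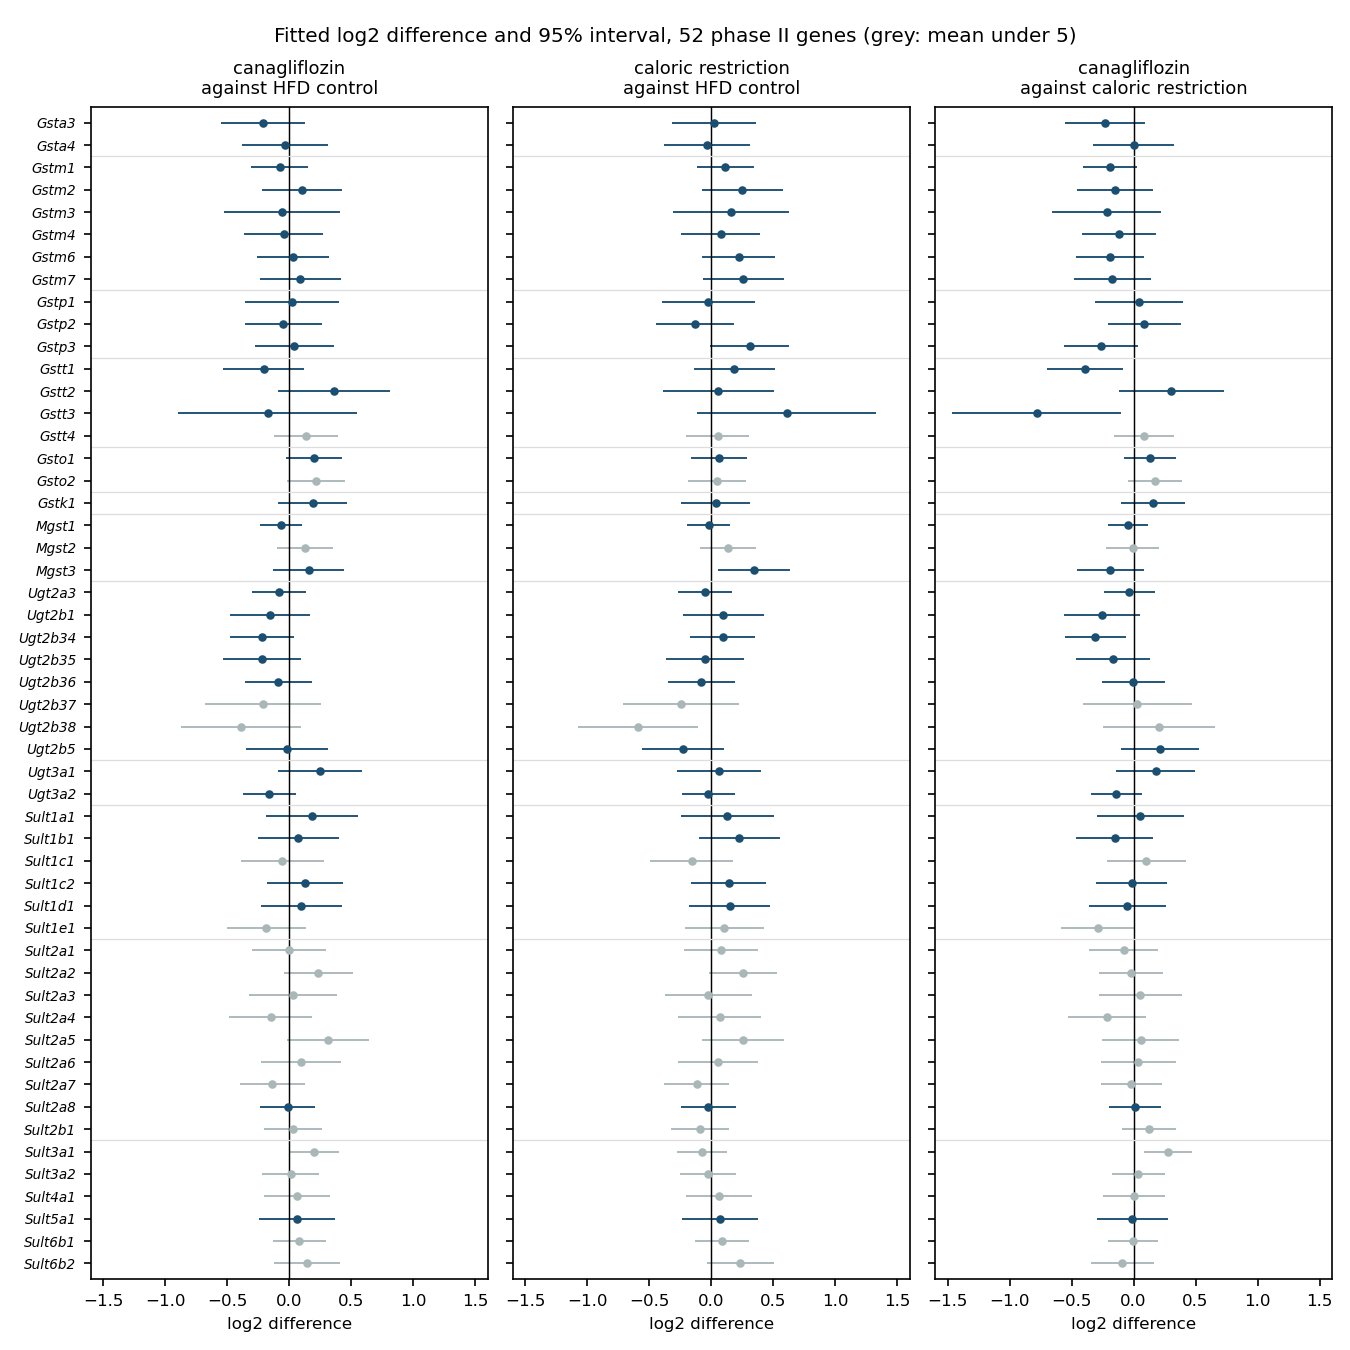
Log2 difference (x axis) of each of the 52 phase II genes (y axis) in the 3 comparisons, as points with 95% intervals from limma, grey where the mean over the 14 arrays was under 5. The points lie between -0.39 and 0.36 for canagliflozin against HFD control, between -0.59 and 0.61 for caloric restriction against HFD control and between -0.78 and 0.31 for canagliflozin against caloric restriction.

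As a set, the median difference was 0.02 with canagliflozin and 0.06 under caloric restriction against HFD control, beside -0.00 and 0.00 over all genes. Against caloric restriction the drug group's median was -0.01, beside -0.00. The drug group's mean was above HFD control for 28 of 52 genes (49.7% of all genes) and above caloric restriction for 22 of 52 (49% of all genes). The caloric restriction mean was above HFD control for 34 of 52 (50.5% of all genes). By class, the drug against HFD control gave higher means for 12 of 21 glutathione S-transferases, 1 of 10 UDP-glycosyltransferases and 15 of 21 sulfotransferases. Caloric restriction against HFD control gave 17 of 21, 3 of 10 and 14 of 21.

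Among the glutathione S-transferases, the theta class held the widest differences between the treated groups. Gstt1, which conjugates small halogenated compounds, read 9.88, 10.19, 10.08 and 10.22 in HFD control. It read 9.73, 9.61, 10.33, 9.85 and 9.93 with canagliflozin, and 10.60, 10.21, 9.81, 10.31 and 10.47 under caloric restriction. Of the drug arrays 4 lay below 4 of the caloric restriction arrays, and the groups overlapped through drug array 3 and restriction array 3. The difference of the drug group from caloric restriction was -0.39 ± 0.15 (SE; 95% interval -0.70 to -0.08, unadjusted p = 0.0153, limma adjusted p = 0.774). Against HFD control the difference was -0.21 with the drug, and -0.14 without drug replicate 2 or -0.32 without drug replicate 3. Under caloric restriction it was 0.19, and 0.11 without restriction replicate 1 or 0.30 without restriction replicate 3.

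Gstt3, its neighbour in the theta class, varied most between arrays of all members with a mean of 5 or more, with an SD within groups of 0.628 against a median of 0.249. Its values were 6.59, 6.87, 7.39 and 8.08 in HFD control. They were 6.82, 6.41, 7.49, 7.44 and 7.15 with canagliflozin, and 8.51, 7.35, 6.78, 8.14 and 8.43 under caloric restriction. In 3 caloric restriction arrays Gstt3 lay above every other array of the study, while array 3 of that group lay among the lowest. The difference of drug and caloric restriction was -0.78 ± 0.32 (SE; 1.72-fold lower, interval -1.46 to -0.10, unadjusted p = 0.0265, limma adjusted p = 0.801). It was -1.05 without restriction replicate 3 and -0.62 without restriction replicate 1. Caloric restriction against HFD control gave 0.61 with an interval of -0.11 to 1.33, and 0.39 without HFD control replicate 1.

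Gstt2 gave the opposite sign with the drug. It read 6.62, 6.74, 6.91 and 7.17 in HFD control, 7.37, 7.73, 6.37, 7.32 and 7.31 with canagliflozin, and 7.00, 7.13, 6.97, 6.38 and 7.10 under caloric restriction. Of the 5 drug arrays 4 lay above every HFD control and every restriction array, and drug array 3 lay below them all. The difference against HFD control was 0.36 ± 0.21 (SE, interval -0.09 to 0.81), the highest of the 52 in that comparison, and against caloric restriction it was 0.31 ± 0.20. Neither passed the test. The first was 0.23 without drug replicate 2 and 0.57 without drug replicate 3, and the second 0.17 without restriction replicate 4 and 0.52 without drug replicate 3. Drug array 3 also had the highest Gstt1 of its group.

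**Figure D2:**
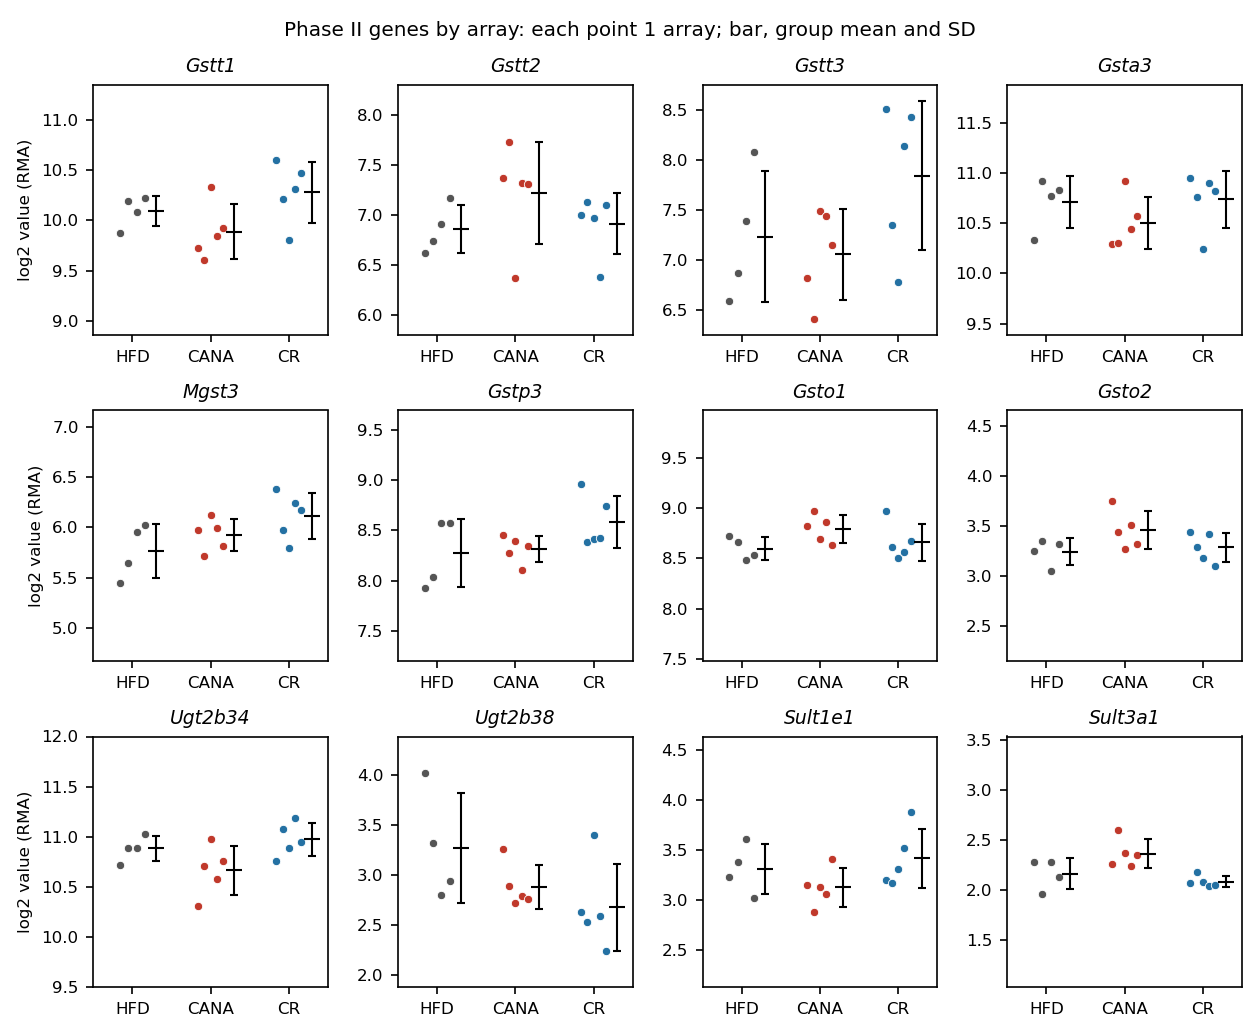
Log2 level (y axis, each panel spanning 2.5 log2 units) of 12 phase II genes in HFD control, canagliflozin and caloric restriction (x axis). Each point is an array and the bar gives the group mean and SD. The groups overlap in every panel except drug against restriction for Sult3a1, and Gstt3 shows the widest scatter.

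Mgst3, a microsomal member with glutathione peroxidase activity, read 5.45, 5.65, 5.95 and 6.02 in HFD control and 6.38, 5.97, 5.80, 6.24 and 6.17 under caloric restriction. With the drug it read 5.97, 5.72, 6.12, 5.99 and 5.81. Caloric restriction lay above HFD control by 0.34 ± 0.14 (SE, interval 0.06 to 0.63, unadjusted p = 0.0220, limma adjusted p = 0.999), with 3 restriction arrays above all HFD control arrays. Mgst1, the abundant microsomal enzyme, had the smallest spread of the bright members. Its level was 10.33 ± 0.04 in HFD control (SD, n = 4), 10.27 ± 0.09 with canagliflozin (SD, n = 5) and 10.31 ± 0.08 under caloric restriction (SD, n = 5).

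All 6 mu-class genes (Gstm1, Gstm2, Gstm3, Gstm4, Gstm6 and Gstm7) had a higher mean under caloric restriction than in HFD control, with a median of 0.19. All 6 had a lower mean with the drug than under caloric restriction, by -0.22 to -0.12 with a median of -0.18. Against HFD control the drug gave 3 higher and 3 lower, with a median of -0.01. These counts were the same after median centring and after cyclic loess, except that the last median took the other sign at 0.01 under both. Over all genes, 50.5% were higher under caloric restriction than in HFD control, and 49% higher with the drug than under caloric restriction. Leaving out an array broke both counts of 6. Without restriction replicate 5, Gstm3 was -0.06 for caloric restriction against HFD control and 0.0005 for the drug against caloric restriction. Without HFD control replicate 4, Gstm4 was -0.02 for caloric restriction against HFD control. None of the 6 had an unadjusted p below 0.05 in any comparison. In Gstm3 a single restriction array, replicate 5, stood at 8.19 while the rest of its group read 6.99 to 7.23.

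Of the pi class, which is more abundant in livers of male mice, Gstp3 read 7.93, 8.04, 8.57 and 8.57 in HFD control and 8.96, 8.38, 8.41, 8.42 and 8.74 under caloric restriction. The difference was 0.31 ± 0.15 (SE, unadjusted p = 0.0563, limma adjusted p = 0.999) and 0.19 without HFD control replicate 1. Gstp1 had means of 12.49 ± 0.30, 12.51 ± 0.15 and 12.46 ± 0.42 (SD, in HFD control, drug and caloric restriction), an SD larger than the differences between its means. Omega-class Gsto1, which reduces dehydroascorbate and removes glutathione from proteins, read 8.72, 8.66, 8.48 and 8.53 in HFD control and 8.82, 8.97, 8.69, 8.86 and 8.63 with the drug. Its difference was 0.20 ± 0.11 (SE, unadjusted p = 0.0852, limma adjusted p = 0.797), with 3 drug arrays above all HFD control arrays. Dim Gsto2 gave 0.22 ± 0.11 (limma adjusted p = 0.792) and 0.14 without drug replicate 1. Kappa-class Gstk1, found in mitochondria and peroxisomes, had means of 10.77 ± 0.15, 10.96 ± 0.18 and 10.80 ± 0.27, and Gstm1 of 8.58 ± 0.16, 8.50 ± 0.12 and 8.69 ± 0.19 (SD, same order).

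The UDP-glycosyltransferases had lower means with canagliflozin than in HFD control for all 8 Ugt2 genes, with a median of -0.19. Under median centring 7 of the 8 were lower, and under cyclic loess all 8. Without drug replicate 4, Ugt2b36 and Ugt2b5 turned to 0.02 and 0.11. None had an unadjusted p below 0.05 in that comparison, where 49.7% of all genes had a higher mean. Caloric restriction also gave lower means than HFD control for 6 of the 8, with a median of -0.07. With the drug 5 of the 8 were lower than under caloric restriction, with a median of -0.02. Ugt2b34, of the family that glucuronidates steroids and drugs, read 10.72, 10.89, 10.89 and 11.03 in HFD control. It read 10.31, 10.71, 10.98, 10.58 and 10.76 with the drug and 10.76, 11.08, 10.89, 11.19 and 10.95 under caloric restriction. The difference of the drug group from caloric restriction was -0.31 ± 0.12 (SE; interval -0.55 to -0.06, unadjusted p = 0.0166, limma adjusted p = 0.785). The groups overlapped, since drug array 3 lay within the restriction group.

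Drug arrays 1 and 4 were the lowest of the drug group for several of these genes. Ugt2b1, a major hepatic member, read 11.26 and 11.31 there and 11.63 to 12.02 in the other 3 drug arrays, beside 11.73 to 11.84 in HFD control. Ugt2b35 read 7.58 and 7.39 there and 7.88 to 8.02 in the others, beside 7.89 to 8.15 in HFD control. The same arrays were the lowest of the drug group for Ugt2b36, at 9.19 and 8.92. Ugt3a2, which uses sugars other than glucuronic acid, had a drug difference of -0.16 with an interval of -0.38 to 0.05, and of -0.10 without drug replicate 1. Ugt3a1 had one of 0.24 with an interval of -0.09 to 0.58, and of 0.11 without HFD control replicate 1.

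Dim Ugt2b38 gave the lowest p of the 52 genes for caloric restriction against HFD control. It read 4.02, 3.32, 2.80 and 2.94 in HFD control and 2.63, 2.53, 3.40, 2.59 and 2.24 under caloric restriction, with 3.26, 2.89, 2.72, 2.79 and 2.76 for the drug. Of the restriction arrays 4 lay below every HFD control array. The difference was -0.59 ± 0.23 (SE; interval -1.08 to -0.11, unadjusted p = 0.0188, limma adjusted p = 0.999), and -0.34 without HFD control replicate 1.

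Among the sulfotransferases, Sult3a1, an amine sulfotransferase that is higher in female than in male mouse liver, was the only one of the 52 genes whose groups did not overlap. It read 2.26, 2.60, 2.37, 2.24 and 2.35 with canagliflozin and 2.07, 2.18, 2.08, 2.04 and 2.05 under caloric restriction. HFD control read 2.28, 1.96, 2.28 and 2.13 and overlapped both. The drug group was higher than caloric restriction by 0.28 ± 0.09 (SE; interval 0.09 to 0.47, unadjusted p = 0.00678, limma adjusted p = 0.683). Against HFD control the difference was 0.20 ± 0.10 (limma adjusted p = 0.774), and 0.13 without HFD control replicate 2. All these values lie below the lowest quartile of every array, so the gene was near the bottom of the measured range.

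Sult1e1, the estrogen sulfotransferase, read 3.15, 2.88, 3.13, 3.06 and 3.41 with the drug and 3.20, 3.17, 3.31, 3.52 and 3.88 under caloric restriction. The difference was -0.29 ± 0.14 (SE, unadjusted p = 0.0563, limma adjusted p = 0.828), and -0.17 without restriction replicate 5. Sult2a5 and Sult2a2, dim members of the hydroxysteroid family, gave 0.31 ± 0.16 and 0.23 ± 0.13 with the drug against HFD control (limma adjusted p = 0.779 and 0.800). Those were 0.21 without drug replicate 4 and 0.16 without HFD control replicate 4. Under caloric restriction Sult2a2 gave 0.25 ± 0.13 and Sult6b2 0.23 ± 0.13 against HFD control, both at a limma adjusted p of 0.999. The Sult2a genes are close copies of each other, so their probe sets may share signal. Of the bright sulfotransferases, Sult2a8, which sulfates bile acids, had means of 11.33 ± 0.16, 11.32 ± 0.15 and 11.31 ± 0.12 (SD, in HFD control, drug and caloric restriction). Sult1a1, the phenol sulfotransferase, had means of 10.58 ± 0.31, 10.77 ± 0.26 and 10.71 ± 0.34, and Sult5a1 of 6.65 ± 0.36, 6.71 ± 0.17 and 6.72 ± 0.17, in the same order.

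**Figure D3:**
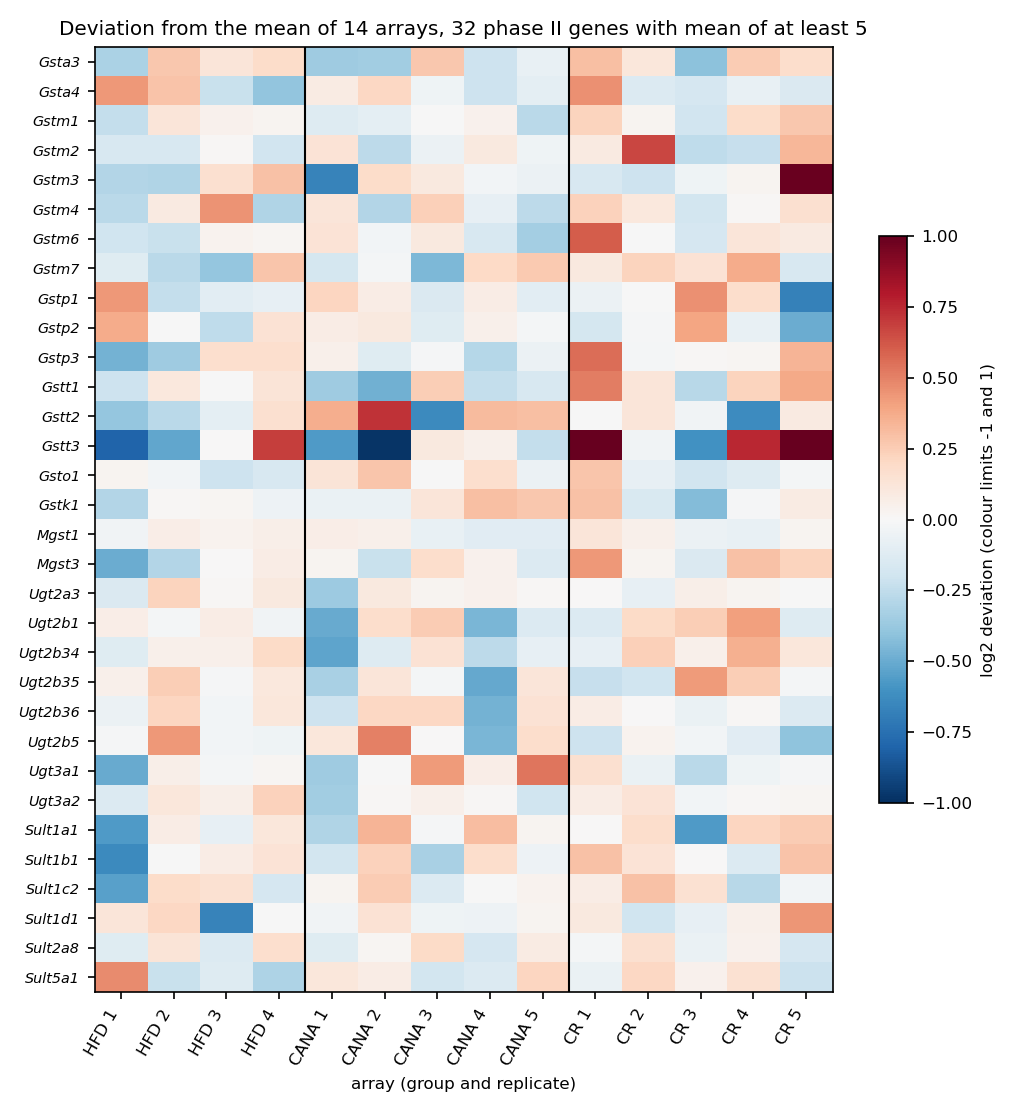
Deviation of each of the 32 phase II genes with a mean of 5 or more (rows of the map) from its own mean over the 14 arrays (columns, by group), in log2 units with the colour scale ending at -1 and 1. Arrays of one group differ among themselves, and caloric restriction array 1 holds the highest value of the 14 arrays for 10 of the 32 genes.

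Some phase II genes varied together from array to array within the groups. Each value was taken as its deviation from its group's mean, and the 496 pairs of the 32 members with a mean of 5 or more were compared over the 14 arrays. Group membership was kept in 100000 permutations. The median r was 0.0702. At an adjusted p below 0.05 over the 496 pairs, 3 pairs were called by r, all positive, and 2 of these also by rho.

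Gsta3, an alpha-class enzyme that detoxifies aflatoxin epoxide in mice, went with Gstt1 at r = 0.932 (permutation p = 0.00011, adjusted p = 0.0496) and rho = 0.930 (adjusted p = 0.031). Without the 2 arrays whose Gsta3 level lay farthest from its median over all arrays, r was 0.891. That choice went by level and kept drug array 3, which lay far above its group's mean. It therefore does not show what r is without the arrays of largest deviation. With the order of the arrays in the deposit removed, r over all arrays was 0.929. Gsta3 read 10.33, 10.92, 10.77 and 10.83 in HFD control, 10.29, 10.30, 10.92, 10.44 and 10.57 with canagliflozin, and 10.95, 10.76, 10.24, 10.90 and 10.82 under caloric restriction. The arrays low in Gsta3 were low in Gstt1: HFD control 1, drug 1 and 2 and restriction 3.

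Gstt3 went with Mgst3 at r = 0.903 (permutation p = 0.0003, adjusted p = 0.0496) and rho = 0.916 (permutation p = 0.00021, adjusted p = 0.031). Without the 2 arrays whose Gstt3 level lay farthest from its median over all arrays, r was 0.909. That choice kept restriction array 3 and HFD control array 4, which deviated most from their group means in Gstt3. Gstt1 and Gstt3 gave r = 0.824 (permutation p = 0.00028, adjusted p = 0.0496) and rho = 0.846 (permutation p = 0.00078, adjusted p = 0.0774), so this pair was called by r alone. Without 2 arrays chosen by level in the same way, its r was 0.775. All 3 adjusted values for r lie just under the threshold. Groups of 4 and 5 arrays are too small for a correlation within each. HFD control array 1 and restriction array 3 were the lowest of their groups for both Gstt3 and Mgst3, and restriction array 1 the highest.

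**Figure D4:**
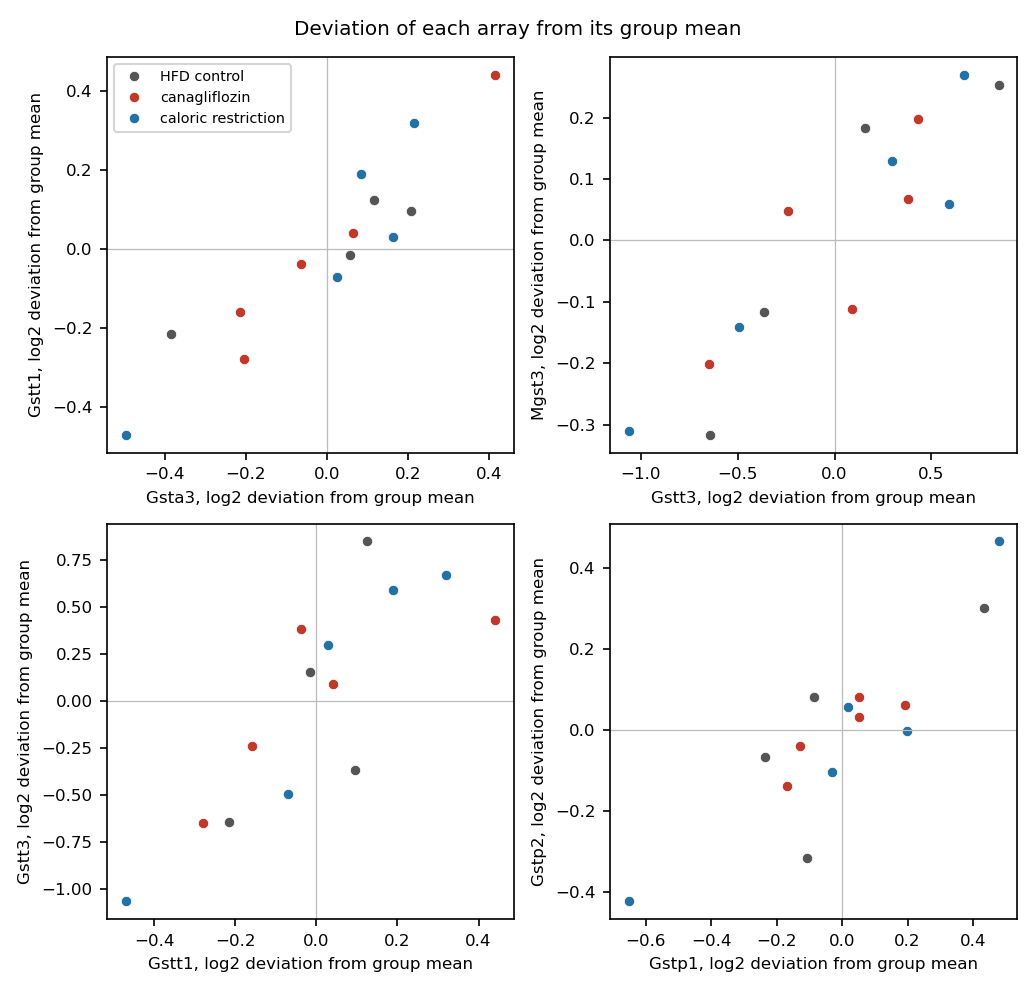
Deviation from the group mean (log2) of one gene against that of another, each point an array coloured by group, for Gsta3 with Gstt1, Gstt3 with Mgst3, Gstt1 with Gstt3, and Gstp1 with Gstp2. The points of each panel run along a rising line, with r of 0.932, 0.903, 0.824 and 0.883.

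Among all other genes, Gstt1 ranked 2 of 22179 by r with Gsta3, and Gstt3 and Mgst3 each ranked 2 for the other. A narrower search covered 8775 genes with a mean of 5 or more. It left out symbols that start with Gm and a number, Mir, Olfr, Vmn, Snor or a digit, or end in Rik. Among the 8775, those most like Gsta3, beside Gstt1, were Serpina6 (r = 0.935), Hpgd (0.921), Gbe1 (0.917) and Adh1 (0.910). Those most like Gstt1, beside Gsta3, were Gbe1 (0.937), Hpgd (0.935), Scd1 (0.912) and Serpina6 (0.912). Hpgd, which inactivates prostaglandins, was also the next most like Gstt3 after Mgst3, at 0.892. These r values describe the 14 arrays over genes chosen for their likeness and carry no test.

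Gstp1 and Gstp2 gave r = 0.883 (permutation p = 0.00321, adjusted p = 0.135) and rho = 0.776, and 0.730 without the 2 farthest arrays. They are near-identical copies, and their probe sets may share signal. Gstp1 was highest in restriction array 3 and HFD control array 1, at 12.94 and 12.92, the arrays lowest in their groups for Gsta3, Gstt3 and Mgst3. The most negative pair of the 496 was Gstm1 with Gstp2, at r = -0.771 (permutation, adjusted p = 0.145).

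The promoters of the genes that varied together and of the copied pi genes, chosen after their values were seen, are shown so that they can be compared. These are the 250 bases before the start of each, from RefSeq on GRCm38.p6, 5′ to 3′ on the gene's strand. They lie at chr1:21240335-21240584 (plus strand) for Gsta3, chr10:75797732-75797981 (minus) for Gstt1, chr10:75781423-75781672 (minus, the first of 2 entries) for Gstt3 and chr1:167393842-167394091 (minus) for Mgst3. Capitals in Gsta3 mark ATTAAC, the reverse complement of the HNF1 motif GTTAAT, and TGACATTGC, a match to the antioxidant response element core TGACNNNGC.
Gsta3: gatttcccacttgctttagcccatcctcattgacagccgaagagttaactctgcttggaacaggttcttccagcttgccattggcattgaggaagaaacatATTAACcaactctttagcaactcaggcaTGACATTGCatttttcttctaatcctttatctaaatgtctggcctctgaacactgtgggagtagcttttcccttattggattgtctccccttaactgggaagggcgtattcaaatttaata
Gstt1: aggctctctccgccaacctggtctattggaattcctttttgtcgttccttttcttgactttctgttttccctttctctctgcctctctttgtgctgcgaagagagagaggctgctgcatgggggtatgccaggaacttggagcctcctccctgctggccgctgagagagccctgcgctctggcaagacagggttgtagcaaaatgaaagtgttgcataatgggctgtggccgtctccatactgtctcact
Gstt3: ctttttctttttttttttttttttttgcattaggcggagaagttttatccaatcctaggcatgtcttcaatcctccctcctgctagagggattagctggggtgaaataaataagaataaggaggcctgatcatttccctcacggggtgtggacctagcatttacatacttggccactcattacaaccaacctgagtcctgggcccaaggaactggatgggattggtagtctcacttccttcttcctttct
Mgst3: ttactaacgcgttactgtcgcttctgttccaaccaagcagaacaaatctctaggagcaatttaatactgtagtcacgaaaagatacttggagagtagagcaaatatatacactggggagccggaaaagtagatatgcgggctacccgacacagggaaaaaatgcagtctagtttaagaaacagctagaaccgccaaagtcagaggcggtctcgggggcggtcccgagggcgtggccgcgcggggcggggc

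Both strands were searched for TGACNNNGC, GTTAAT and TATAAA. In Gstt1, Gstt3 and Mgst3 none of these motifs was found in the window. Of 45 members with a promoter entry, 3 held TGACNNNGC (Gsta3, Gstm7 and Mgst1), beside 10.2% of 32851 promoters of the same length. GTTAAT was in 10 of the 45, beside 6.43% of all promoters, and TATAAA in 10, beside 12.4%. A member counted if any of its entries matched, while the shares over all promoters count every entry, so the units differ. The 10 with GTTAAT include Sult2a3, Sult2a4, Sult2a5 and Sult2a6, which are close copies of each other. No excess in the members is therefore shown. After alignment 49.6% of the 250 bases were identical between Gstt1 and Gstt3, 49.6% between Gsta3 and Gstt1, and 48.0% between Gstt3 and Mgst3. These alignments were global and held 52, 36 and 38 gaps, in the same order. No unrelated promoters were aligned as a baseline, so these shares do not show that the pairs are alike.

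For the copies Gstp1 (chr19:4037913-4038162, minus strand) and Gstp2 (chr19:4042222-4042471, minus) the same windows were 82.8% identical, and capitals mark their longest shared run of 43 bases.
Gstp1: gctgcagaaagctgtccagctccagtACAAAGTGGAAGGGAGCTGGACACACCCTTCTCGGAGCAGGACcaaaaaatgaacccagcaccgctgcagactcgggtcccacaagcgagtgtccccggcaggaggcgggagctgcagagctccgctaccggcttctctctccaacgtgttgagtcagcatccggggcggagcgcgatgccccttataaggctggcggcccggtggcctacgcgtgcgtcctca
Gstp2: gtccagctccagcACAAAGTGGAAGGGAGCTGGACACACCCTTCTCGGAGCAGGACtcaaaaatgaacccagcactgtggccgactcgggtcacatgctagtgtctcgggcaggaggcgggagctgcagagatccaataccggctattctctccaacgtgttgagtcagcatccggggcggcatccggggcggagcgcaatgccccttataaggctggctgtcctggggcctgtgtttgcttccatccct

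The genes around the pathway were counted from 5 lists, chosen with earlier results of these data known. None of their genes passed an adjusted p below 0.05 in any comparison. For canagliflozin against HFD control an unadjusted p below 0.05 was reached by 2 of 18 genes that supply glutathione, UDP-glucuronate or PAPS and by 3 of 16 NRF2 targets. It was also reached by 3 of 20 regulators, 2 of 14 conjugate transporters and 2 of 18 other conjugation and hydrolysis enzymes, beside 6.51% of all genes. For caloric restriction against HFD control these counts were 0, 0, 0, 1 and 0, beside 3.93% of all genes. For the drug against caloric restriction they were 1, 1, 1, 0 and 3, beside 6.05% of all genes.

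Cth, which makes cysteine for glutathione, read 10.59, 10.83, 10.79 and 10.83 in HFD control and 10.95, 11.49, 10.91, 11.39 and 10.98 with the drug. All 5 drug arrays lay above all HFD control arrays, a difference of 0.38 ± 0.12 (SE, limma adjusted p = 0.598). The list of 18 cofactor genes had 5 higher and 13 lower means with the drug, with a median of -0.07. Among the lower was Gclc, the catalytic subunit of the first enzyme of glutathione synthesis, at -0.28 ± 0.16 (limma adjusted p = 0.812). The NRF2 targets differed in sign: Hmox1, which degrades heme, gave 0.61 ± 0.20 and Aox1, aldehyde oxidase, -0.36 ± 0.12, with all 5 drug arrays of Aox1 below HFD control (limma adjusted p = 0.596 and 0.607). Aox1 was at -0.23 without HFD control replicate 3. Osgin1, of the same list, gave -0.71 ± 0.26 (limma adjusted p = 0.672), and -0.49 without drug replicate 5. Of the list of 16, 5 had a higher mean with the drug. Among regulators Cebpa, a liver transcription factor, gave -0.38 ± 0.14 with no overlap (limma adjusted p = 0.673), while its relative Cebpb gave 0.29 ± 0.13 with 4 of 5 drug arrays above all HFD control arrays (limma adjusted p = 0.751). Of the 20 regulators 9 had a higher mean with the drug.

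Of the transporters, Slco1a4, which takes up bile acids and organic anions, gave 1.02 ± 0.37 and Slc22a7, an organic anion transporter, -0.63 ± 0.21 (limma adjusted p = 0.663 and 0.607). The methyltransferases differed in sign: Nnmt, which methylates nicotinamide, gave 0.66 ± 0.18 and Tpmt, which methylates thiopurines, -0.30 ± 0.11 (limma adjusted p = 0.559 and 0.669). All 5 drug arrays lay below HFD control for Tpmt, as did all 5 caloric restriction arrays, at -0.20 ± 0.11. Against caloric restriction the drug gave -0.78 ± 0.21 for the carboxylesterase Ces1g and 0.35 ± 0.10 for dim Hpgds, a glutathione-dependent prostaglandin synthase (limma adjusted p = 0.662 and 0.683). Hpgds had means of 3.31 in HFD control, 3.49 with the drug and 3.14 under caloric restriction, below the median of every array. Drug array 4 read 3.89 and the other drug arrays 3.24 to 3.49. Beside Hpgds, all 7 macrophage markers also had higher means with the drug than under caloric restriction. Their mean per array was 6.81 to 7.31 and 6.26 to 7.18, and their part in the result was not tested. Restriction array 5 was the lowest of its group for every one of these markers except Marco. In that array Cd68 read 6.11 and Csf1r 6.85, while the other restriction arrays read 7.14 to 7.85 for Csf1r. The count of 7 may therefore rest on restriction array 5, and it was not recomputed without that array.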

How the data were processed

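Liver RNA of 14 arrays was labelled with the Affymetrix WT Plus protocol, as the labels' protocols state. The deposited log2 values, 1 per probe set and array, came from RMA as run by the authors in Expression Console (Affymetrix), per the submitters' processing notes. RMA equalises the arrays' distributions, so a difference in total RNA would not be seen. For its version, its library files and the build, nothing is given in the sources used here.

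Groups and replicate numbers came from the labels. Of 41345 probe sets, 23521 carried 1 gene symbol in the platform annotation, 1814 several and 16010 had no entry. For the 1082 genes with several probe sets the one with the highest mean was used, which left 22180 genes, all tested without a filter. All 52 members matched the RefSeq gene table by identifier, with 0 symbols differing.

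The fit (limma 3.58.1, lmFit and eBayes, under R 4.3.3) took the 3 group means over all 14 arrays together, with Benjamini-Hochberg adjustment per comparison and a threshold of 0.05. Errors of differences are standard errors, and those of levels are standard deviations. Genes were named as the 5 members with the smallest p in each comparison and, for levels, the brightest member of each family. From each related list up to 3 genes with the smallest p could be named. Others were named after their values were seen. The members and lists were chosen with earlier results of these data known. Correlations used scipy 1.17.1 and numpy 2.4.6. The scripts were tested on simulated data. Alternatives were a fit to the compared groups alone, trend and robust variance, array weights, median centring, cyclic loess, a filter at a mean of 5, probe sets averaged per gene, the replicate number and deposited order as terms, and leaving out each array. Precision is limited by the number of arrays, which have no depth.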

Additional observations from a re-analysis of the deposited data

Results flagged for a closer look

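Within groups of 4 or 5 arrays, 13 of 156 combinations of gene and group (8.33%) held an array far from the others by Dixon's criterion. For normally distributed values chance meets it in about 1 in 20 groups. The share over all genes was not computed, and genes read on the same arrays are not independent. The 8.33% is therefore not shown to be an excess of these genes. Under caloric restriction these were Gsta3 at 10.24 in replicate 3 (others 10.76 to 10.95), Gsta4 at 8.92 in replicate 1 (8.30 to 8.39), Gstm3 at 8.19 in replicate 5 (6.99 to 7.23), Gstt2 at 6.38 in replicate 4 (6.97 to 7.13) together with dim Sult3a1 at 2.18 in replicate 2 (2.04 to 2.08).

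With canagliflozin, replicate 1 was low for Gstm3 at 6.53 (others 7.14 to 7.38) and for Ugt2a3 at 9.56 (9.94 to 10.02). Dim Sult2a1 was low at 2.08 in replicate 4 (2.34 to 2.40) and dim Sult6b1 high at 2.78 in replicate 3 (2.38 to 2.48). In HFD control, replicate 1 was low for Ugt3a1 at 8.26 (8.74 to 8.82) and high for dim Sult3a2 at 2.29 (2.16 to 2.19). Gstm2 was high at 6.58 in replicate 3 (6.38 to 6.41) and Ugt2b5 at 9.54 in replicate 2 (9.06 to 9.09).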

How the results depend on the processing

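No phase II gene was called under any alternative run, in any comparison. For 15 named gene differences, all 266 alternative values kept their direction and 0 had a limma adjusted p below 0.05. Part of this was fixed in advance. The fit to the compared groups alone, trend and robust variance, the filter and averaged probe sets cannot change a member's fitted difference. Only the other alternatives could have turned a direction. The 15 differences were also chosen for the smallest p in the same data, so their kept direction does not speak for the other members. Some other members changed sign when an array was left out. Ugt2b5, for example, went from -0.02 to 0.11 for canagliflozin against HFD control without canagliflozin replicate 4. Restricted to genes with a mean of 5 or more, the set's median was -0.017 for canagliflozin against HFD control and -0.084 for canagliflozin against caloric restriction, where fewer genes enter. Leaving out each array, the medians ran from -0.0072 to 0.036 with canagliflozin and from 0.042 to 0.073 under caloric restriction against HFD control. Between the treated groups they ran from -0.056, without canagliflozin replicate 2, to -0.012. Without canagliflozin replicate 3, 12 genes of the array were called for canagliflozin against HFD control and 16 for canagliflozin against caloric restriction, with 0 phase II genes in either; the cause was not tested. Median centring turned the sign of 3, 0 and 4 of the 52 differences in the 3 comparisons, and cyclic loess 3, 0 and 2.

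With the replicate number as a block, 0 phase II genes were called and the medians were 0.025, 0.059 and -0.012. Whether the numbers pair the arrays was not settled. Of 13 same-numbered pairs 3 correlated above 0.1, with a range of -0.089 to 0.20, and 5 of 14 arrays correlated best with their own number. In the deposited order HFD control replicate 3 stands between canagliflozin replicate 4 and caloric restriction replicate 4, so the number need not follow any pairing. The number of arrays limits the precision, and the 20 dim genes lie low on the arrays.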

Other observations

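Over all 52 phase II genes, caloric restriction array 1 held the highest or lowest value of the 14 arrays for 12 genes (23.1%, beside 14.9% of all genes on the array). Caloric restriction array 5 did so for 11 (21.2%, beside 11.2%), canagliflozin array 4 for 11 (21.2%, beside 15.7%) and HFD control array 1 for 10 (19.2%, beside 14.3%). Caloric restriction array 2 did so for 3 (5.77%, beside 12.6%).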
